A study of Saccharomyces cerevisiae with 14 samples.

Results

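Strain 84 is a TAQed derivative of the fused diploid budding yeast strain WT14, and its array was 1 of 14 in the series, chosen by its title. It was set beside the array on which WT14 DNA carried both dyes and beside the arrays of the 12 other TAQed strains. WT14 is a MATa/a diploid made by fusing YPH499, a derivative of S288C, with S799, a derivative of SK1. All TAQed strains descend from WT14 cells that carried a TaqI gene under a promoter induced by Cu2+ and were heated at 42 °C for 30 min to activate the enzyme. Whether WT14 itself went through activation is given differently in the sources. Its label and the strain list of the methods put it with the activated strains. Its title, however, calls it a control strain, and no heat dose is listed for it. Elsewhere the study has a control diploid that was not activated. Each TAQed strain is an isolate picked for a small colony and altered cells, with 1 array each, so strain 84 stands for 1 clone and no value has a replicate of its own. On every array the strain was labelled with Cy5 and WT14 with Cy3, with no dye swap.

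In array comparative genomic hybridization (aCGH) both DNAs compete for the same probes, and the log2 ratio of Cy5 over Cy3 follows the copy number of the strain relative to WT14. The parents of WT14 differ in sequence at many sites, and a probe designed on one sequence can bind the homologue of one parent better than that of the other. In a diploid, 1 copy in place of 2 corresponds to a log2 ratio of -1, 3 copies to 0.58 and 4 copies to 1. TaqI cuts a short sequence that occurs throughout the genome, and cells can join the broken ends by end joining or repair them by copying a homologous chromosome or a repeat elsewhere. Mitochondrial DNA of yeast is a separate molecule in many copies that encodes core subunits of the respiratory chain and of ATP synthase, and yeast can ferment and grow slowly without it. Cells that lack it, or that keep only a repeated fragment of it, are known as petites.

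Of the array of strain 84, 59470 probes were used, 59107 on the nuclear chromosomes and 363 on mitochondrial DNA, in coordinates of genome build sacCer2. The noise SD between neighbouring probes was 0.124 in strain 84, against 0.114 to 0.133 on the other arrays without that of strain 81, which was dim and reached 0.186. Probes printed 5 times had a median SD of 0.045 over their spots. The arrays lay on 2 slides, strain 84 with 7 other TAQed strains (119, 117, 113, 107, 106, 101 and 97) on one and WT14 with 5 TAQed strains (83, 81, 76, 73 and 1) on the other. Along 14 of the 16 chromosomes strain 84 stayed near the level of the array, with medians between -0.09 on IX and 0.02 on VIII. The exceptions were parts of chromosomes IV and XVI, and the mitochondrial molecule. Among the 14 chromosomes, 1 median lay outside the range of the other TAQed strains. It was that of X, at 0.02 in strain 84, against -0.17 to -0.01 in the other TAQed strains and 0.01 in WT14.

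Chromosome IV of strain 84 lay at the level of 1 copy along its right part. The loss was called from 992897 to 1524286, a stretch of 531 kb with 2676 probes, at a median log2 ratio of -1.04 ± 0.29 (SD over probes). WT14 had -0.01 over the same probes, and the 12 other TAQed strains had 0.00 to 0.52 with a median of 0.06. The value of 0.52 came from strain 106, which gained much of this chromosome, and the next highest was 0.11. Strain 84 did not overlap any other array, and the 7 other strains on its slide covered the same range of 0.00 to 0.52. Its ratio corresponds to 0.97 copies. The exact two-sided permutation test of strain 84 against the 13 other arrays gave p = 0.0714, the smallest value that 14 arrays allow. The same p was found for the gain on XVI, the mitochondrial median and the number of mitochondrial probes with signal, and adjustment over these 4 tests (Benjamini-Hochberg) left it at 0.0714. The parts of IV and XVI were picked on this same array, and the members were chosen with earlier results of these data known. None of the 4 p-values is thus independent of the choice.

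**Figure D1:**
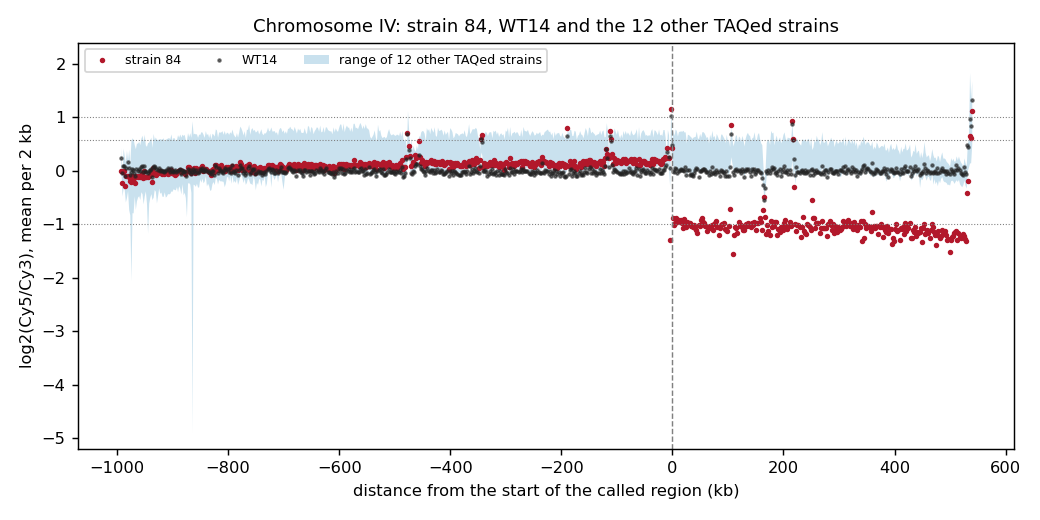
Mean log2(Cy5/Cy3) in windows of 2 kb along chromosome IV against the distance in kb from the start of the lost part (dashed line), with strain 84 in red, WT14 in black and the range of the 12 other TAQed strains shaded. Dotted lines mark log2 ratios of -1, 0.58 and 1. Right of the dashed line most windows of strain 84 lie near -1.04, below the other arrays, except in a few short stretches, and left of it strain 84 lies mostly within the range of the others.

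The loss was flat along its length once the common shape of the arrays was taken off. The other arrays had a shallow slope in level here, so each probe of strain 84 was also given relative to the median of the 13 other arrays. In 4 pieces of equal length, from left to right, the relative median was -1.11, -1.07, -1.08 and -1.10. The ratio itself was -0.99, -0.99, -1.03 and -1.14 in these pieces, where the median of the other arrays was 0.12, 0.07, 0.03 and -0.03. Catalogue probes of the array design and custom probes, which were designed separately, gave -1.05 and -1.02 for strain 84. The unchanged left part of chromosome IV, from 156 to 982090, had a relative median of -0.01 over 4820 probes.

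Counted in windows of 2 kb, 263 of the 267 windows of the lost part lay below -0.3 in strain 84, against 2 in WT14 and 0 to 3 in the other TAQed strains. Over the whole genome 4.46% of 6036 windows lay below -0.3 on the array of strain 84 and 0.0994% on that of WT14. The called part was chosen for its level on this array, so the count describes how evenly the part was lost and is no test of it. Of the 5684 windows outside the called parts of IV and XVI, 6 lay below -0.3 in strain 84, against 4 in WT14.

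At the left boundary strain 84 showed a step of -1.14, taken as the median of the 20 kb right of it minus that of the 20 kb left of it. At the same position the step was -0.01 on the WT14 array and between -0.06 and 0.12 in the other TAQed strains. The boundary lies in a stretch where probes stood far apart. Up to the probe at 985472, at 0.24, strain 84 resembled the other arrays. The next probe, at 987108, had -2.76 in strain 84, against -0.38 to 0.22 on the other arrays, and the one at 987530 had -0.98, against -0.15 to 0.18. From 987938 to 992613 there followed 5 probes with log2 ratios of -0.13, 1.16, 0.94, 0.66 and -0.30 in strain 84. WT14 had 0.07, 1.02, 0.90, 0.59 and -0.05 at them, close to those of strain 84. The segment at the level of 1 copy began at 992897. Its start was put at 987108 with the series matrix values, after loess, after subtraction of the WT14 ratio and with catalogue probes only. With normexp it was put at 992613.

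Short stretches inside the lost part kept a median near that of the other arrays. The longest by number of probes held 18 probes from 1156315 to 1159559, with a median of -0.48 in strain 84, against -0.56 in WT14 and -0.63 to -0.23 in the other TAQed strains. Strain 84 thus lay within the range of the others there. Sparse stretches from 1095711 to 1101638 with 5 probes and from 1207242 to 1212633 with 6 probes had medians of 0.59 each in strain 84, against 0.50 and 0.60 in WT14. The other TAQed strains had 0.11 to 0.53 at the first, where strain 84 lay above all of them although 1 probe had -1.06 relative to the other arrays, and 0.05 to 0.59 at the second. Probes stood 1239 and 1145 bases apart in them at the median, against 194 bases over the nuclear genome. The last 7 probes of the chromosome, from 1525466 to 1531093, had 0.54 in strain 84, against 0.79 in WT14. What sequence these probes detect was not analysed here, since no genome of this build was used.

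Single probes in the lost part spread further than in the unchanged left part, and more of them downwards than upwards. Of the 2676 probes, 232 (8.67%) lay more than 0.3 below the relative median of the part and 77 (2.88%) more than 0.3 above it. In the unchanged left part of the chromosome 1 and 4 of 4820 probes did so. In 9 lost regions of 6 other strains these shares were 1.60% to 12.2% below and 1.91% to 13.4% above the median. In 3 of the 9 more probes lay below, as in strain 84, and in 6 more lay above.

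Many of the probes that stood apart in strain 84 also stood apart in strain 1, in the opposite direction. They were chosen by their values in strain 84, so only the values of the other arrays are free of the choice. At the 232 probes far below the level of the lost part, strain 84 had a relative median of -1.57 and strain 1 had 0.31, with 219 of the 232 above 0 in strain 1. At the 77 probes far above that level, strain 84 had -0.53 and strain 1 had -0.22, with 23 of the 77 above 0 in strain 1. At the remaining 2367 probes strain 84 had -1.08 and strain 1 had 0.01, with 1326 of the 2367 above 0 in strain 1. Strain 1 as a whole was thus not changed there. Apart from strain 106 with its gain, the other arrays had medians between -0.09 and 0.07 at the 232 probes. The shift in strain 1 was not seen in the first 30 kb of the lost part, where 11 such probes had -1.58 in strain 84 and 0.01 in strain 1. Of these 11 probes, 6 lay above 0 in strain 1. All arrays share WT14 as the Cy3 DNA, and this comparison was chosen after the values were seen.

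The right part of chromosome XVI lay at the level of 3 copies in strain 84, with a higher level near the end and a stretch of scattered probes before the gain. The gain was called from 776245 to 947834, a stretch of 172 kb with 776 probes, at a median of 0.61 ± 0.17 (SD over probes). WT14 had 0.00 over the same probes and the other TAQed strains had -0.16 to 0.01, so that strain 84 lay above all of them. Of 85 windows of 2 kb in this part, 85 lay above 0.3 in strain 84, against 8 in WT14 and 1 to 9 in the other TAQed strains. Over the whole genome 4.11% of windows did so in strain 84 and 2.92% in WT14. This part too was called for its level on this array, so the count is no test of the gain. Left of the gain, from 104 to 776096, the median was 0.01 in strain 84, against 0.00 in WT14.

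**Figure D2:**
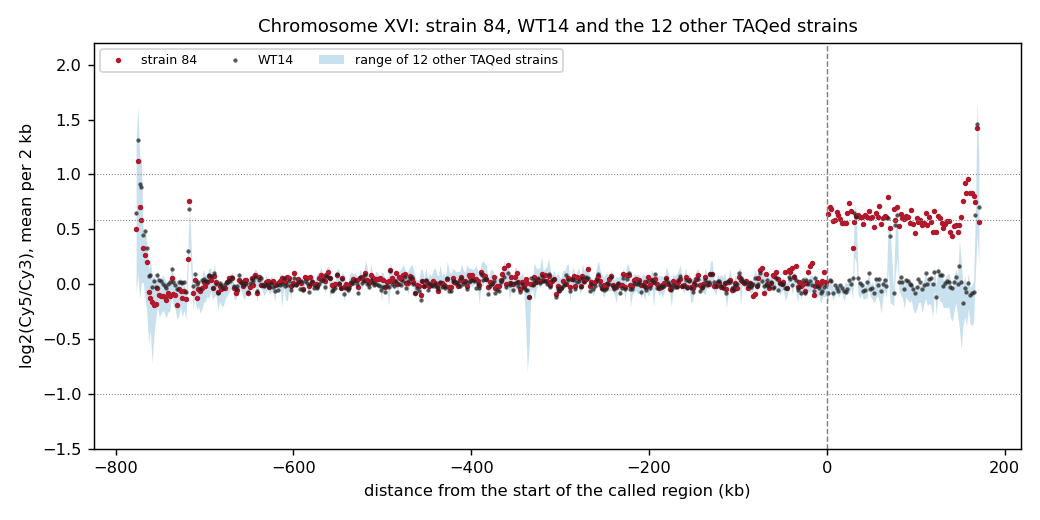
Mean log2(Cy5/Cy3) in windows of 2 kb along chromosome XVI against the distance in kb from the start of the gained part (dashed line), with strain 84 in red, WT14 in black and the range of the 12 other TAQed strains shaded. Dotted lines mark log2 ratios of -1, 0.58 and 1. Strain 84 leaves the other arrays at the dashed line, at a step of 0.56, and lies higher again near the right end.

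The level changed within a few neighbouring probes. The probe at 775868 had -0.07 in strain 84, with -0.20 to 0.00 on the other arrays. The one at 776037 had 0.21, above the -0.17 to 0.14 of the others and between both levels. The next, at 776245, had 0.86, with 0.00 to 0.17 on the others, and the 2 after it had 0.72 and 0.68. The step over 20 kb on each side was 0.56 in strain 84, against -0.01 in WT14 and -0.04 to 0.01 in the other TAQed strains. The start at 776245 was the same under each of the 8 other sources, normalizations and probe sets tried.

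Within the gain, the level fell slightly from left to right up to 928464 and was higher beyond it. From 776245 to 928464 the median was 0.59 ± 0.15 over 695 probes in strain 84 (3.01 copies), against 0.00 in WT14 and -0.14 to 0.01 in the other TAQed strains, with a median of -0.04. Its 3 pieces of equal length had relative medians of 0.65, 0.64 and 0.58. From 928516 to 942555, a stretch of 14.04 kb with 72 probes, strain 84 had 0.83 ± 0.12, against -0.06 in WT14 and -0.34 to 0.01 in the other TAQed strains, with a median of -0.13. This ratio corresponds to 3.57 copies. Relative to the other arrays the stretch lay at 0.98, or 3.94 copies. The step between both levels was 0.31 in strain 84, against -0.08 in WT14 and -0.11 to -0.02 in the others. With normexp background correction, which adds an offset of 50 to each channel, the step shrank to 0.013, against -0.44 to -0.01 on the other arrays, and the end stretch as a whole lay at 0.63, below the 0.70 of the part before it.

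Probes around this second step were not all at the same level. In the relative profile the 5 probes from 926970 to 927747 had 0.84 to 1.08, while the 9 before them, from 925219 to 926778, had 0.32 to 0.50. The 3 from 927941 to 928213 had 0.48 to 0.53 and the one at 928405 had 0.87. The ratios of strain 84 at the groups with 0.32 to 0.53 overlapped those of the other arrays, which varied widely at these probes. From 928516 the level stayed near 0.98 up to 942496. The last 9 probes, from 942790 to 947834, had a median log2 ratio of 0.73 in strain 84, against 0.78 in WT14 and 0.22 to 0.98 in the other TAQed strains. Strain 84 lay within the range of the others at these end probes. Near WT14 were also 5 probes from 804604 to 809988 (0.51 in strain 84, against 0.60 in WT14) and 5 from 852781 to 856900 (0.61 in strain 84, against 0.53 in WT14).

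Just left of the gain, chromosome XVI kept its median level in strain 84 while single probes moved. In the stretch from 700001 to 776096, 28 of 385 probes lay more than 0.3 above the median of the other arrays and 7 more than 0.3 below. WT14 had 1 above and 0 below, and the other TAQed strains without the dim array of strain 81 had 0 to 3 above and 0 to 1 below. In the stretch of equal length to the left, from 623905 to 700000, strain 84 had 0 above and 2 below, so the scatter was not seen there. The raised probes ran from 703236 to 773299, and the highest, at 738210, had 0.76. Before them came lone low probes at 693579 with -0.74 and at 695486 with -0.93. The stretch as a whole had a relative median of 0.03 in strain 84 and of -0.01 in WT14.

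The spread of the probes, taken as the 90th minus the 10th percentile, was 0.36 in strain 84 in this stretch, against 0.13 to 0.17 in the others without strain 81. In windows of 20 kb starting at 700001 it was 2.07, 2.45, 3.02 and 4.99 times the median window of the array, and on no other array did these windows exceed 1.26 times. The last window reaches past the start of the gain. Set against their own medians, 6.23% of the probes of this stretch lay more than 0.3 above and 2.34% more than 0.3 below, and in the gained part beside it 1.15% and 2.16%. Windows of the gained part were wider than on the other arrays in places too. The window from 840001 to 860000 had 3.55 times, where the others had at most 1.83 times. The one from 920001 to 940000, which holds the second step, had 4.18 times, where the others had at most 3.57 times. Without subtraction of the other arrays, the planned measure found 1 run of widened windows in strain 84, on chromosome IV from 1160001 to 1240000, and missed the stretch on XVI. That stretch was picked for its spread on the array of strain 84. With the subtraction, runs of at least 3 windows past 1.5 times near the unchanged level were also found in other TAQed strains, on other chromosomes. Strain 1 had 3 such runs, 83 had 4, 97 had 2, 101 had 2, 106 had 5 and 107 had 1, against 1 in strain 84.

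**Figure D3:**
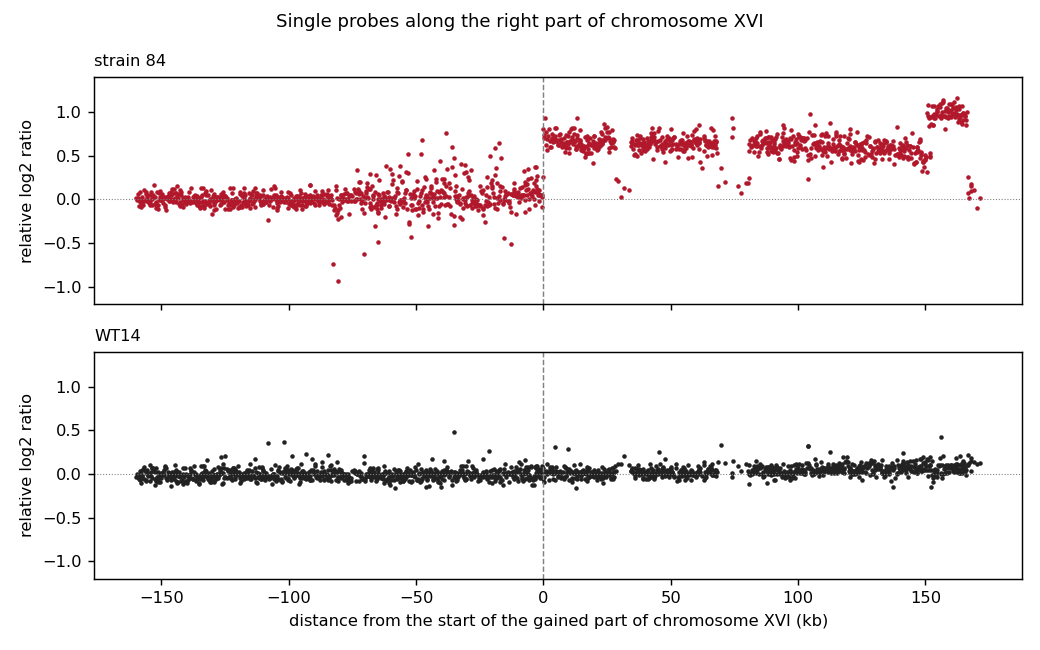
Log2 ratio of single probes relative to the median of all other arrays along the right part of chromosome XVI, against the distance in kb from the start of the gained part (dashed line), for strain 84 above and WT14 below. In strain 84 the probes fan out left of the dashed line around a median of 0.03, lie mostly near the gained level right of it, and reach 0.98 before the end.

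Mitochondrial DNA was lost from strain 84 along nearly its whole length. The 363 mitochondrial probes, placed from 49 to 85778, had a median log2 ratio of -8.56, against 0.09 in WT14 and -0.60 to 0.80 in the other TAQed strains, with a median of 0.41. The lowest of the others was strain 101 and the highest strain 113, both on the slide of strain 84. The median raw Cy5 signal at these probes was 11 in strain 84, over a local background of 13, while the median nuclear Cy5 signal of the same array was 221. Cy3, which carried WT14, had a median of 458 at the mitochondrial probes of this array. The DNA of WT14 was thus well measured in the spots in which strain 84 gave almost no signal.

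A ratio near background gives only a bound. Cy3 was well above background at 333 of the 363 probes of the array of strain 84, and at 292 of these Cy5 was not. With Cy5 raised to the lowest signal well above background on the array and the mean of the 13 other arrays set against it, strain 84 was at least 190-fold lower at the median of these 292 probes. Over single probes the bound ran from 1.63-fold to 1058-fold. At 30 probes neither channel was well above background, and they carry no measure of loss, with a median ratio of -0.60. Cy5 was well above background at 41 of 363 probes in strain 84 (11.3%, exact Clopper-Pearson 95% interval 8.23% to 15.0%, counting error only), against 331 in WT14 and 245 to 335 in the other TAQed strains. The 245 belonged to the dim array of strain 81. With the weaker flag of a positive and significant signal the count was 157 in strain 84, against 346 in WT14 and 289 to 353 in the other TAQed strains.

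The mitochondrial molecule holds 46 annotated genes, of which 19 code for proteins, 24 for tRNAs and 2 for ribosomal RNAs, and 1 for RPM1, the RNA of mitochondrial RNase P. The protein genes include COX1, COX2 and COX3 of cytochrome c oxidase, COB of the cytochrome bc1 complex, ATP6, ATP8 and OLI1 of ATP synthase, and VAR1 of the mitochondrial ribosome. The table of names follows another build than the arrays, so probes were not assigned to these genes.

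The loss was not even, and 5 probes had a positive ratio in strain 84. A group of 5 overlapping and neighbouring probes from 4239 to 4554 held 4 of them. The probe from 4239 to 4298 had 4.43 in strain 84, against -0.10 in WT14 and -0.81 to 0.73 in the other TAQed strains. The probe from 4243 to 4302 had 4.17 in strain 84, against 0.01 in WT14, and the one from 4495 to 4554 had 3.81, against -0.10. At these 3 probes strain 84 lay above every other array that measured them.

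Raw signals were high at the group as well. Cy5 of strain 84 was 1809, 2981 and 277 at these 3 probes, and Cy3 of WT14 was 71, 129 and 24. Between them, the probe from 4268 to 4327 had 0.75 in strain 84, against 0.39 in WT14, within the range of the other strains. The probe from 4283 to 4342, which overlaps it, had -2.54 in strain 84, against 0.43 in WT14, so probes that overlap each other had ratios of both signs. On the left, the probes at 3686 and 3483 still gave Cy5 above background, at -3.35 and -5.22. On the right, Cy5 at 4743 was no longer above background, and the probe at 4905 had -6.12.

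**Figure D4:**
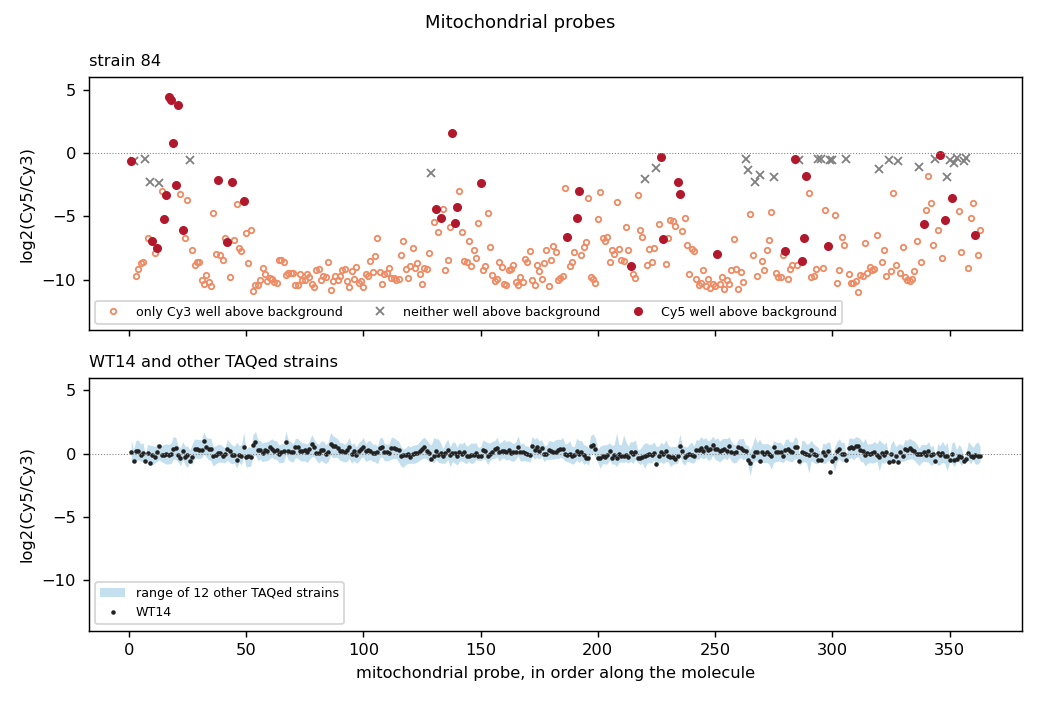
Log2(Cy5/Cy3) of the 363 mitochondrial probes in their order along the molecule, for strain 84 above, by whether Cy5 or Cy3 was well above background, and for WT14 (black) with the range of the 12 other TAQed strains (shaded) below. Most probes of strain 84 lie between -5 and -11, with filled points up to 4.43 in a group near the left end, while WT14 stays near 0.09.

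Elsewhere on the molecule the signal of strain 84 came from scattered probes. The 41 probes with Cy5 above background formed 28 runs of neighbours, of which 22 were lone probes and the longest, from 3483 to 4554, held 7. Outside that run the highest was the probe from 32189 to 32248, at 1.56 in strain 84 against 0.08 in WT14, while its neighbours at 32007 and 32393 had -5.86 and -5.57. Lone probes at 82583, 67927 and 49 had -0.14, -0.51 and -0.66 in strain 84, against -0.14, 0.52 and 0.11 in WT14. The probe at 54592, in a run of 2, had -0.32 in strain 84, against 0.15 in WT14. Of the 41 probes, 21 lay at or below -4. Of the 333 probes with Cy3 above background, 321 were lower in strain 84 than on every other array even with Cy5 raised to the lowest signal well above background, and 4 were higher than on every other.

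**Figure D5:**
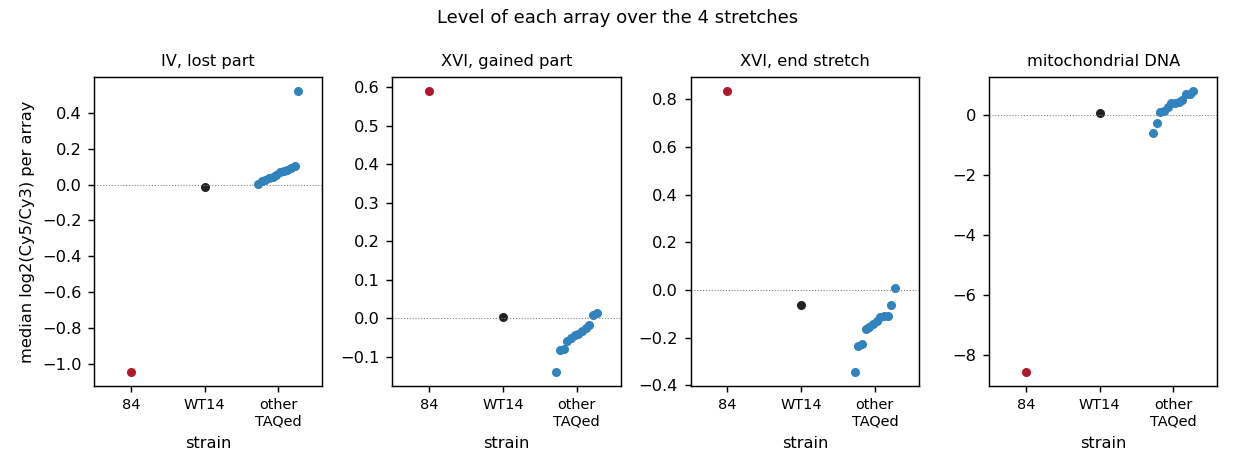
Median log2(Cy5/Cy3) of each array over the lost part of chromosome IV, the gained part of XVI, its end stretch and the mitochondrial probes, with strain 84 in red, WT14 in black and the 12 other TAQed strains in blue. Each panel has its own axis. Strain 84 lies at -1.04, 0.59, 0.83 and -8.56, outside the other arrays in all 4 panels.

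Of 32 called segments, 19 lay off chromosomes IV and XVI, where the longest was 15.96 kb, and 0 of the 19 had a median beyond the range of the 13 other arrays. Of them, 14 lay within 20 kb of a chromosome end and 17 were past the threshold in the same direction in WT14. WT14 had 23 called segments and the other TAQed strains 11 to 55. Short stretches of 5 or 6 probes on III, V, VIII and XV were high in strain 84 and in most TAQed strains. On III (91376 to 92353) strain 84 had 8.53, against -0.07 in WT14 and -0.19 to 9.02 in the other TAQed strains. On V (116139 to 116887) it had 6.37, against 0.14 in WT14 and 0.12 to 7.20 in the others. Strain 84 lay close to the top of the range at both. On XV (721715 to 722554) it had 8.07, against 0.06 in WT14 and 0.16 to 9.03 in the others, and on VIII (212231 to 214649) it had 2.85, against 0.36 in WT14 and 0.51 to 3.94 in the others. At all 4 stretches strain 84 ranked second of the 14 arrays, behind strain 113, and strain 83 was the lowest of the other TAQed strains. These were the 4 stretches off IV and XVI that a finer segmentation of the relative profile called in strain 84, with 5 probes at least. They were thus chosen for high values in strain 84 relative to the other arrays, and its rank at them is not independent of the choice.

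Beyond IV and XVI, windows of 20 kb past 1.5 times the median window of the array were compared with the other arrays. Of them, 1 had a wider probe spread in strain 84 than on every other array. This window, on chromosome VI from 200001 to 220000, had 2.09 times, against at most 1.07 times on the others. Its width came from 9 low probes between 203751 and 208191, with relative ratios of -0.86 to -0.26, among 22 probes in all. Their median was -0.11 in strain 84, within the -0.19 to 0.13 of the other arrays, so the stretch as a whole was not called.

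Listed genes that keep or use mitochondrial DNA were counted on both changed arms by the arm in their names. They were not placed inside or outside the changed parts, and their order along the arms was not used. A gene counted on an arm need not lie in its changed part. The right arm of IV holds 535 of 6020 genes with an arm in their name (8.89%) and that of XVI 196 (3.26%). Of 32 listed genes of mitochondrial DNA maintenance with a match, 3 (9.38%) lie on the right arm of IV, near the share of all genes, namely MHR1 (recombination of mitochondrial DNA), DIN7 (a mitochondrial nuclease) and MSS116 (a mitochondrial RNA helicase). The right arm of XVI holds 1 of them, YME1, a protease of the mitochondrial inner membrane. Of 37 listed subunits of the respiratory chain and ATP synthase, 4 (10.8%) lie on the right arm of IV, namely SDH4, QCR7, ATP5 and ATP17. On that of XVI lie 2 (5.41%), QCR2 and ATP20. Of 26 listed genes of double-strand break repair, 4 (15.4%) lie on the right arm of IV and 0 on that of XVI. The 4 are RAD9 of the damage checkpoint, RAD55 and RAD57, which assist strand exchange, and XRS2, which acts on broken ends. Of 16 listed genes of cell size control 0 lie on either arm. Each share rests on 4 genes or fewer, and none was tested against that of all genes. The copy number of the listed genes in strain 84 was not determined.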

How the data were processed

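Per the labels, genomic DNA of each strain (Cy5) and of WT14 (Cy3) was hybridised to an Agilent tiling array. The authors deposited spot tables written by Feature Extraction 11.0.1.1. Its processed intensities have the local background subtracted and the dyes normalized linearly. They also deposited a matrix of log10 ratios for 47691 spots, none mitochondrial, used here as an alternative only. Log2 ratios were computed from the processed intensities of all 14 arrays without loess. Control spots and spots with outlier flags (85 on the array of strain 84, 64 to 135 on the others) were left out, as were nuclear probes spanning over 100 bases and 22 spots without coordinates. Spots of a probe were averaged and each array centred on its median. Chromosomes were divided by least-squares optimal partitioning into segments of at least 10 probes, with a penalty (factor 10) that grew with the noise variance and the log of the probe number. Segments were called above 0.3 or below -0.3 and joined over gaps under 20 kb, and parts of at least 20 kb were kept. The segmentation was tested on simulated data. Signal over background limits the precision, with 99.4% of the spots of strain 84 well above background in both channels.

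Single arrays were compared by exact permutation over arrays (Python 3.11.15, numpy 2.4.6), and no test was made over probes. The members and gene lists were chosen with earlier results of these data known, and the profile relative to the other arrays was added after seeing the data. Genes were not placed by coordinates because the table of names (RefSeq, R64) follows another build. All names of the lists but 1 were matched. Alternatives covered the source of the values, normexp and loess by limma 3.58.1, centring, probe filters, thresholds and windows. Normexp used median spot signals in place of the planned mean signals.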

Additional observations from a re-analysis of the deposited data

How the results depend on the processing

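Under the alternatives, 58 of 89 values moved by less than the spread of the other arrays or, for counts, less than 1.5 times. Normexp moved the region medians to -0.77 on IV and 0.70 on XVI, their steps to -0.94 and 0.68, the second step on XVI to 0.013 and the mitochondrial median to -3.00. It also turned the order of both levels on XVI, with 0.63 in the end stretch and 0.70 before it. The cause was not tested. Loess moved the step on IV to -1.06, the second step on XVI to 0.38 and the called segments to 20. Called parts of at least 20 kb numbered 3 in place of 2 after loess and with probes well above background in both channels. The step on XVI was 0.58 with the series matrix values and with catalogue probes, 0.59 after subtraction of WT14, 0.61 after subtraction of the other arrays, 0.62 over 10 kb and 0.59 over 40 kb. The step on IV over 10 kb was -1.27. The second step on XVI was 0.41 after either subtraction and 0.35 over 10 kb. Called segments numbered 12 with the series matrix values and 13 with catalogue probes, and called windows 993 at 1 kb and 195 at 5 kb, since the number of windows changes with their size. The mitochondrial median was -4.28 over probes well above background in both channels, -6.79 with Cy5 raised to the lowest signal well above background and -7.56 with Cy5 raised to the local background. With the positive and significant flag, 157 mitochondrial probes had Cy5 signal in place of 41. The runs of widened windows numbered 2 at 10 kb, 0 at 40 kb and 2 after subtraction of the other arrays, against 1. With at least 6 TAQed arrays in place of 10, 4 short stretches of high ratio were found, and strain 84 was above 1 in all of them. At those added, both on XII, strain 84 had 1.28 and 1.08, against 1.37 and 0.96 in WT14. The medians of the other TAQed strains were 1.71 and 1.38 there, above strain 84. The series matrix gave no mitochondrial value because it holds no mitochondrial spot. No paired analysis was possible because each strain has 1 array and the labels give no replicate numbers. With 1 array per strain, no value of strain 84 has a replicate, and WT14 lay on the other slide.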
